A study of Homo sapiens with 2 samples.

Results

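The 37 genes described here belong to the integrated stress response and to amino acid supply, and were read in single cells of the human embryonic stem cell line H9, grown as naive cells. They were chosen by gene symbol, with no measured value in the rule, though earlier results of these data were known. All 37 were found among the 36601 genes of the count tables. They comprise 6 transcription factors, 7 regulators and effectors, 2 kinases, 6 genes of amino acid synthesis, 6 transporters, 4 tRNA synthetases and 6 genes of the endoplasmic reticulum (ER). The line is an established one, kept here in RSeT medium, which is sold to hold cells in a naive state.

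One group received ASO-L1, an oligonucleotide antisense to LINE1 RNA, and the other received SO-L1, its sense control. Both oligonucleotides carried the green dye 6-FAM and were given at 25 nM with a lipid reagent. Both groups then grew with 10 nM DZNep, an inhibitor of histone methylation, and 5 nM TSA, an inhibitor of histone deacetylases. Both also received 0.7 µM trans-ISRIB, 5 µM emricasan, a caspase inhibitor, and 10 µM Y-27632, a ROCK inhibitor, all withdrawn at 24 hours. Sorting for the dye at 48 hours gave 100000 cells, of which 12000 were targeted in each library at more than 65000 reads per cell. Trans-ISRIB acts on the pathway studied here, by keeping the guanine exchange factor eIF2B working when eIF2 is phosphorylated, and no group without it was analysed here.

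Each group was 1 library, so no value below could be checked in a second library. "Higher" and "lower" therefore describe these samples and not the treatments. Cells with at least 1000 detected genes and under 20% mitochondrial UMIs were kept, which left 9084 of 11659 barcodes in ASO-L1 and 6553 of 13070 in SO-L1. A UMI marks 1 captured RNA molecule. The kept cells held a median of 53959.5 UMIs in ASO-L1 and 42314 UMIs in SO-L1. They fell into cells with under 2% mitochondrial UMIs, called low-mitochondrial here, and ordinary cells at 2% or more. There were 2531 low-mitochondrial and 6553 ordinary cells in ASO-L1, against 1857 and 4696 in SO-L1. Levels are CPM, the UMIs of a gene per 1000000 UMIs summed over a group's cells, and that sum leaves out mitochondrial genes. Intervals are exact at 95% and cover counting error only.

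The libraries shared 6105 barcode sequences, and 274 of them were kept in both. For 253 of these, the SO-L1 copy held under 5% of the UMIs of the ASO-L1 copy, with a median of 1762 UMIs. These copies made up 0.170% of the kept SO-L1 UMIs, and the counts of members called higher or lower in the 5 comparisons below were the same without them. A further 5034 shared barcodes were kept in ASO-L1 only, and their SO-L1 copies held a median of 1.34% of the ASO-L1 UMIs. Another 788 were kept in SO-L1 only, with a median of 0.953% the other way. The barcodes not kept thus include many low copies, whose origin was not tested. The markers of pluripotent cells (8 of 8 detected in each group) summed to 1779 CPM in ASO-L1 and 2793 CPM in SO-L1 in low-mitochondrial cells, and to 3435 CPM and 3568 CPM in ordinary cells. Among these were POU5F1 with 609 CPM in ASO-L1 and 956 CPM in SO-L1, SOX2 with 116 CPM and 259 CPM, and NANOG with 39.8 CPM and 54.3 CPM, all in low-mitochondrial cells. CDKN1A, a cell cycle inhibitor, had 99.1 CPM in ASO-L1 and 72.4 CPM in SO-L1 in low-mitochondrial cells, and 24.0 CPM and 6.00 CPM in ordinary cells. Markers of the embryo at the 8-cell stage (8C, 9 genes) summed to 408 CPM in ASO-L1 and 58.7 CPM in SO-L1 in low-mitochondrial cells, and to 41.3 CPM and 3.001 CPM in ordinary cells. Mesendoderm markers (6 genes) summed to 147 CPM in ASO-L1 and 17.4 CPM in SO-L1 in low-mitochondrial cells, and to 63.9 CPM and 15.7 CPM in ordinary cells. In low-mitochondrial cells, none of the 9 8C markers was at 0 in ASO-L1 and 1 was in SO-L1. Markers of naive cells summed to 308 CPM in ASO-L1 and 241 CPM in SO-L1 in low-mitochondrial cells and to 375 CPM and 288 CPM in ordinary cells, and markers of primed cells to 372 CPM and 521 CPM and to 654 CPM and 657 CPM. No marker of either state was at 0 in any group, though DUSP6, a primed marker, had only 0.119 CPM in low-mitochondrial SO-L1 cells. At this depth a count above 0 does not show that a state was present. DPPA5 carried most of the naive sum and CD24 most of the primed sum. In ordinary cells the other 4 primed markers were each higher in ASO-L1, as SFRP2 with 62.2 CPM in ASO-L1 and 29.3 CPM in SO-L1, while CD24 had 528 CPM and 589 CPM. The other 5 naive markers were each higher in ASO-L1 in both classes.

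In the integrated stress response, kinases that sense amino acid shortage, unfolded ER proteins, viral RNA or lack of heme phosphorylate the alpha subunit of eIF2. Most protein synthesis then slows while a few messages, ATF4 among them, are translated more, and the ATF4 protein turns on genes for amino acid uptake, amino acid synthesis and tRNA charging. ATF4 is set mainly at translation, so the level of its RNA does not give the level of its protein. Unfolded proteins in the ER also act through ATF6 and XBP1, which turn on ER chaperones.

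ATF4 binds with C/EBP partners to a composite site, the C/EBP-ATF response element, and the ER arm acts through the ER stress response element. Both were searched on both strands in RefSeq promoter windows (GRCh38.p14) from 250 bases before to 50 after each start. The first was taken as TGATGNAA and the second as CCAAT and CCACG with 9 free bases between them, and neither motif holds the other. The first was found in 10 of 51 member windows (19.6%), against 3.62% of 35116 windows of the same length. The 51 windows belong to 33 of the 37 genes, since PSPH, SHMT2, SLC7A11 and NUPR1 have none there. The second was found in 3 of 51 (5.88%), all 3 among the 7 windows of the ER group, against 0.0769% of all windows. A match is a run of letters and not a shown site. Member windows are shown for genes whose levels are contrasted below, with the matches in capitals, 5′ to 3′ on the strand of the gene. ATF3 has a further window (chr1:212614768-212615067), not shown, without a C/EBP-ATF match. ATF3 (chr1:212565157-212565456, plus strand) is a transcription factor, CEBPG (chr19:33373863-33374162, plus) a partner of ATF4, CHAC1 (chr15:40953221-40953520, plus) an enzyme that degrades glutathione and ASNS (chr7:97872359-97872658, minus) the asparagine synthetase. HSPA5 (chr9:125241294-125241593, minus) and HSP90B1 (chr12:103930160-103930459, plus) encode ER chaperones. In CHAC1 and in the second match of HSP90B1 the capitals are the reverse complement of the motif.
ATF3: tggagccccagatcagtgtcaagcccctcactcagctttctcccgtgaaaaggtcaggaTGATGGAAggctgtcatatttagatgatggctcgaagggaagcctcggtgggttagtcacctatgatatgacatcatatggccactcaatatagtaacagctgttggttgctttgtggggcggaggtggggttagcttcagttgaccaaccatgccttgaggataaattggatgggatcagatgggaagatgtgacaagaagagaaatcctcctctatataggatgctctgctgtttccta
CEBPG: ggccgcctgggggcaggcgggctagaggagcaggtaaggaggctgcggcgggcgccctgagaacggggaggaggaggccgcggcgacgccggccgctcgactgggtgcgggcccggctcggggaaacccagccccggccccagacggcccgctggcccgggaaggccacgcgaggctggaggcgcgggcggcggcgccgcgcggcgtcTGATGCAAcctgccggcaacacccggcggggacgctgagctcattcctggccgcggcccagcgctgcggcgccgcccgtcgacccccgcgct
CHAC1: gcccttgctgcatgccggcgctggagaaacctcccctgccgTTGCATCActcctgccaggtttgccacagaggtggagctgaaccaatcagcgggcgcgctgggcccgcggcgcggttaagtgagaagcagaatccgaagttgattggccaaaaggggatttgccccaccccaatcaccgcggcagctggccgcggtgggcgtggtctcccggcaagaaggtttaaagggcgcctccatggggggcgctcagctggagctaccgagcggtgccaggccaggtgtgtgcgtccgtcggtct
ASNS: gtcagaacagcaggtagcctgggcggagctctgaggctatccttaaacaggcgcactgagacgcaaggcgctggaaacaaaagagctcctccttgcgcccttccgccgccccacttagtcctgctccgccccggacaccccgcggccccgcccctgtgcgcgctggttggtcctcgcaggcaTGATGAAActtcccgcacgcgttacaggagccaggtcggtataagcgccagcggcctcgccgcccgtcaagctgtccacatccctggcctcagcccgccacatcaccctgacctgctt
HSPA5: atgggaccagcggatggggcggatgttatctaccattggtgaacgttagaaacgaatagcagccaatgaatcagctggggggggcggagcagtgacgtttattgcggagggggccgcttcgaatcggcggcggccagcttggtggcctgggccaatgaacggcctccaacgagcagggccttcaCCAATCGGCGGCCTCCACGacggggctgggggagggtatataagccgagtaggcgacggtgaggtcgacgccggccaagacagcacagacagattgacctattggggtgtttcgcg
HSP90B1: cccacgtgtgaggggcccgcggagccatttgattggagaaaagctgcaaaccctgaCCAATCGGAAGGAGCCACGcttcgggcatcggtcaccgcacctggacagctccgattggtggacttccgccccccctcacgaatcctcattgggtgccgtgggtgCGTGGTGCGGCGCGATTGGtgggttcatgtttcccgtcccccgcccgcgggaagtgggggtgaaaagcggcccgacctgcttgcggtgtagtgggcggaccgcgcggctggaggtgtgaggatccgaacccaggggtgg

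In low-mitochondrial cells, 14 of the 37 genes were higher in ASO-L1 than in SO-L1, by 1.5-fold or more with an interval excluding 1, beside 22.9% of all 19163 genes measured. On the same rule 5 were lower, beside 24.9% of all genes. In ordinary cells 15 were higher, beside 12.2% of 21479 genes, and 2 were lower, beside 15.7%. The median log2 ratio of ASO-L1 over SO-L1 over the 37 genes was 0.42 in low-mitochondrial and 0.46 in ordinary cells, and that of all genes was -0.01 and -0.06. Over all kept cells together 15 were higher and 3 lower, beside 16.6% and 17.1% of 22863 genes. The genes higher in both classes numbered 11. They were the 6 transcription factors with TRIB3, PPP1R15A, MTHFD2, SLC3A2 and HERPUD1. The overlap over all genes was not counted, so this number is not read as particular to the members. SARS and SDF2L1 were lower in both classes.

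**Figure D1:**
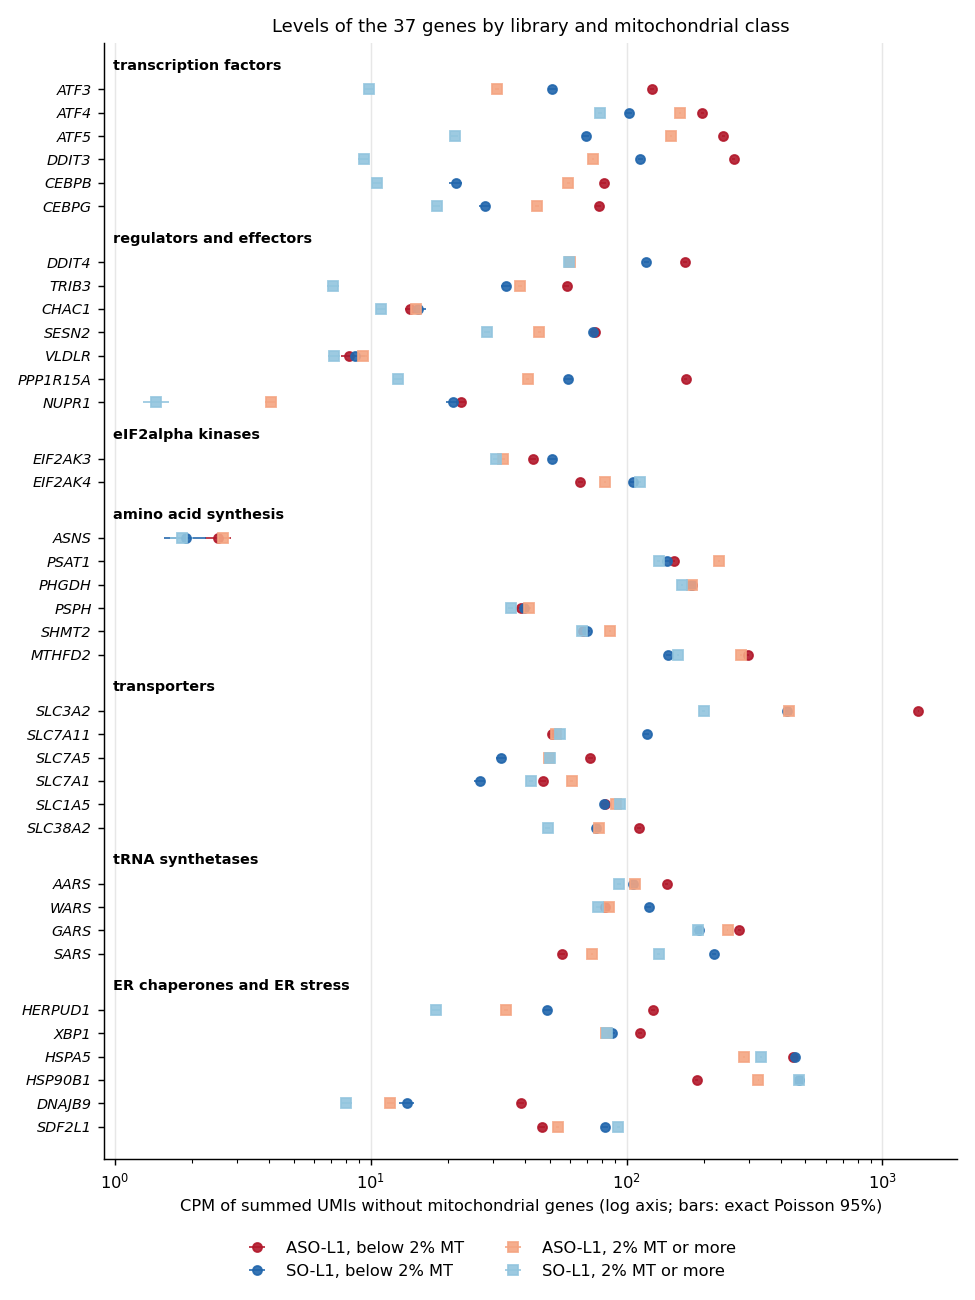
Level of each of the 37 genes in CPM on a log axis in the 4 groups of cells, ASO-L1 in red and SO-L1 in blue, dark circles for cells below 2% mitochondrial UMIs and pale squares for ordinary cells. Bars are exact Poisson 95% intervals and are often smaller than the marker, and points are to be compared within a gene only. All 6 transcription factors are highest in low-mitochondrial ASO-L1 cells and lowest in ordinary SO-L1 cells, and SARS and HSP90B1 are lowest in low-mitochondrial ASO-L1 cells.

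All 6 transcription factors were higher in ASO-L1 in both classes, beside 22.9% of all genes in low-mitochondrial cells and 12.2% in ordinary cells. Each was highest in low-mitochondrial ASO-L1 cells and lowest in ordinary SO-L1 cells. DDIT3 (CHOP, chr12:57516588-57521737, minus strand, GENCODE 29 on GRCh38), a factor tied to cell death under lasting stress, had 262 CPM in low-mitochondrial ASO-L1 cells and 113 CPM in low-mitochondrial SO-L1 cells. In ordinary cells it had 74.0 CPM in ASO-L1 and 9.38 CPM in SO-L1. The ratio of ASO-L1 over SO-L1 was thus 2.32 (2.26 to 2.38) in low-mitochondrial and 7.89 (7.52 to 8.28) in ordinary cells. ATF5, a factor of the same family that also serves the mitochondrial stress response, had 239 CPM in ASO-L1 and 69.1 CPM in SO-L1 in low-mitochondrial cells, and 150 CPM and 21.3 CPM in ordinary cells. The ratios for ATF5 were 3.45 (3.34 to 3.57) and 7.01 (6.79 to 7.24). CEBPB, a C/EBP partner of ATF4, had 81.3 CPM in ASO-L1 and 21.5 CPM in SO-L1 in low-mitochondrial cells and 59.3 CPM and 10.6 CPM in ordinary cells, ratios of 3.79 (3.57 to 4.02) and 5.59 (5.34 to 5.85). For these 3 genes the ratio was thus larger in ordinary cells, a difference that 1 library per group does not allow to be tested.

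ATF4 itself was the member of the 6 with the smallest ratios. It had 198 CPM in ASO-L1 and 102 CPM in SO-L1 in low-mitochondrial cells, and 162 CPM and 78.9 CPM in ordinary cells. Its ratios, 1.94 (1.88 to 1.99) and 2.05 (2.01 to 2.08), were close in the 2 classes. ATF3, a stress-induced factor that can repress transcription, had 126 CPM in ASO-L1 and 51.0 CPM in SO-L1 in low-mitochondrial cells, and 31.1 CPM and 9.89 CPM in ordinary cells. CEBPG had 77.8 CPM in ASO-L1 and 27.9 CPM in SO-L1 in low-mitochondrial cells, and 44.7 CPM and 18.1 CPM in ordinary cells. In ATF3 and DDIT3 the low-mitochondrial SO-L1 cells came second, above ordinary ASO-L1 cells, while in the other 4 factors ordinary ASO-L1 cells came second. ATF5 shares 21.2% of its exon bases with NUP62 and DDIT3 shares 27.2% with MARS, each on the opposite strand, and no source used here says whether counting used strand. Over all kept cells, NUP62 had 35.5 CPM in ASO-L1 and 53.7 CPM in SO-L1, and MARS had 55.1 CPM and 57.0 CPM.

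The 8C and mesendoderm markers were also higher in ASO-L1, so the ratios were taken again, after the data were seen, in cells with no UMI of any marker on either list. This kept 503 ASO-L1 and 1137 SO-L1 low-mitochondrial cells, with a median of 20993 and 29152 UMIs, and 2041 ASO-L1 and 2813 SO-L1 ordinary cells. In these low-mitochondrial cells 13 of the 37 genes were higher in ASO-L1 and 2 lower, beside 11.5% and 8.22% of 14926 genes. In these ordinary cells 11 were higher and 1 lower, beside 6.47% and 8.65% of 18379 genes. DDIT3 was 1.28-fold (1.20 to 1.35) higher in ASO-L1 in the low-mitochondrial set, under the 1.5-fold limit, and 4.60-fold higher in the ordinary set. ATF5 had ratios of 2.08 and 4.08 in these sets, CEBPB 3.19 and 4.31, TRIB3 1.59 and 3.37, and SLC3A2 was 1.71-fold higher in the low-mitochondrial set. ATF3 had 1.60 and 1.85, ATF4 1.53 and 1.72, and CEBPG 1.59 and 1.70. Each of these ratios was smaller than in all cells of the class, and the sets without markers also had lower median UMIs than their class. SARS had ratios of 0.512 (0.484 to 0.541) and 0.691 (0.672 to 0.709), so it was lower past 1.5-fold in the low-mitochondrial set only. HSP90B1 had 0.871 (0.845 to 0.898) in the low-mitochondrial set and was within 1.5-fold there, and SLC7A11 had 0.704 (0.662 to 0.749).

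Among the 7 regulators and effectors, 2 were higher in ASO-L1 in low-mitochondrial cells and 4 in ordinary cells, beside 22.9% and 12.2% of all genes. None was lower, beside 24.9% and 15.7%. The count of 2 lay near the share of all genes. PPP1R15A (GADD34), the phosphatase subunit that undoes eIF2 phosphorylation, had 171 CPM in ASO-L1 and 59.0 CPM in SO-L1 in low-mitochondrial cells, and 41.0 CPM and 12.8 CPM in ordinary cells. Its ratios of 2.89 (2.79 to 2.997) and 3.21 (3.08 to 3.36) were close in the 2 classes. TRIB3, a pseudokinase that restrains ATF4 and CHOP, had 58.3 CPM in ASO-L1 and 33.8 CPM in SO-L1 in low-mitochondrial cells, and 38.4 CPM and 7.11 CPM in ordinary cells. Its ratios were 1.73 (1.64 to 1.82) and 5.40 (5.11 to 5.71). In the shallowest low-mitochondrial cells TRIB3 was about level, with 42.1 CPM in 844 ASO-L1 cells and 40.8 CPM in 619 SO-L1 cells. The deepest 844 and 619 cells had 58.3 CPM and 31.5 CPM. NUPR1, a small stress-induced nuclear protein, had 22.5 CPM in ASO-L1 and 20.9 CPM in SO-L1 in low-mitochondrial cells, and 4.06 CPM and 1.45 CPM in ordinary cells. SESN2, a sensor of leucine that restrains mTORC1, had 75.2 CPM in ASO-L1 and 74.0 CPM in SO-L1 in low-mitochondrial cells, and 45.7 CPM and 28.4 CPM in ordinary cells. NUPR1 and SESN2 thus differed between libraries in ordinary cells, by 2.79-fold (2.46 to 3.18) and 1.61-fold (1.56 to 1.66), while in low-mitochondrial cells the ratios were 1.07 (1.004 to 1.15) and 1.02 (0.980 to 1.05).

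DDIT4 (REDD1), another brake on mTORC1, had 169 CPM in ASO-L1 and 120 CPM in SO-L1 in low-mitochondrial cells, and 60.3 CPM and 59.7 CPM in ordinary cells. It was the one gene of the group whose ratio was larger in low-mitochondrial cells, 1.42 (1.38 to 1.46) against 1.01 (0.989 to 1.03). CHAC1, whose window carries a C/EBP-ATF match, stayed low in all 4 groups, with 14.3 CPM in ASO-L1 and 15.4 CPM in SO-L1 in low-mitochondrial cells, and 15.03 CPM and 10.96 CPM in ordinary cells. The interval of its ratio in low-mitochondrial cells included 1, 0.929 (0.856 to 1.01). VLDLR, a lipoprotein receptor induced through ATF4, had 8.21 CPM in ASO-L1 and 8.72 CPM in SO-L1 in low-mitochondrial cells, and 9.35 CPM and 7.17 CPM in ordinary cells. CHAC1 and VLDLR therefore differed less than 1.5-fold between the libraries in each class.

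The 2 kinases were not higher in ASO-L1. EIF2AK3 (PERK), which senses unfolded ER proteins, had 43.0 CPM in ASO-L1 and 51.0 CPM in SO-L1 in low-mitochondrial cells, and 33.0 CPM and 30.9 CPM in ordinary cells. EIF2AK4 (GCN2), which senses uncharged tRNA, had 66.0 CPM in ASO-L1 and 106 CPM in SO-L1 in low-mitochondrial cells, and 82.3 CPM and 113 CPM in ordinary cells. Its ratios were 0.624 (0.603 to 0.646) and 0.731 (0.718 to 0.744), the first past the 1.5-fold limit. Kinase activity is set by ligands and phosphorylation, which RNA counts do not show.

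Of the 6 genes of amino acid synthesis, 1 was higher in ASO-L1 in low-mitochondrial cells and 2 in ordinary cells, beside 22.9% and 12.2% of all genes. The first count lay near the share of all genes. MTHFD2, a mitochondrial enzyme of one-carbon metabolism, had 297 CPM in ASO-L1 and 146 CPM in SO-L1 in low-mitochondrial cells, and 280 CPM and 159 CPM in ordinary cells. It was higher in both classes, by 2.04-fold (1.99 to 2.09) and 1.77-fold (1.75 to 1.79). MTHFD2 shares 27.2% of its exon bases with SLC4A5 on the opposite strand, which had 5.16 CPM in ASO-L1 and 3.01 CPM in SO-L1 over all kept cells. PSAT1, an aminotransferase of serine synthesis, had 153 CPM in ASO-L1 and 144 CPM in SO-L1 in low-mitochondrial cells, and 230 CPM and 134 CPM in ordinary cells, ratios of 1.07 (1.04 to 1.09) and 1.72 (1.70 to 1.75). The other serine and glycine enzymes differed little. PHGDH, the first enzyme of serine synthesis, had 181 CPM in ASO-L1 and 179 CPM in SO-L1 in low-mitochondrial cells, and 181 CPM and 165 CPM in ordinary cells. PSPH, the last enzyme of the pathway, had ratios of 0.971 (0.923 to 1.02) and 1.18 (1.15 to 1.21), and SHMT2, which turns serine into glycine, 0.967 (0.931 to 1.004) and 1.29 (1.26 to 1.32).

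ASNS, the classical target of the amino acid response, was counted at 2.54 CPM in ASO-L1 and 1.90 CPM in SO-L1 in low-mitochondrial cells, and at 2.64 CPM and 1.82 CPM in ordinary cells. Its ratios were 1.34 (1.07 to 1.68) and 1.45 (1.28 to 1.64), neither past 1.5-fold, and its level was nearly the same in both classes of a library. These counts are uncertain, because 44.6% of the exon bases of ASNS lie under AC079781.5 on the same strand, and a read in both genes can be lost or split. AC079781.5 had 16.8 CPM in ASO-L1 and 23.6 CPM in SO-L1 over all kept cells.

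**Figure D2:**
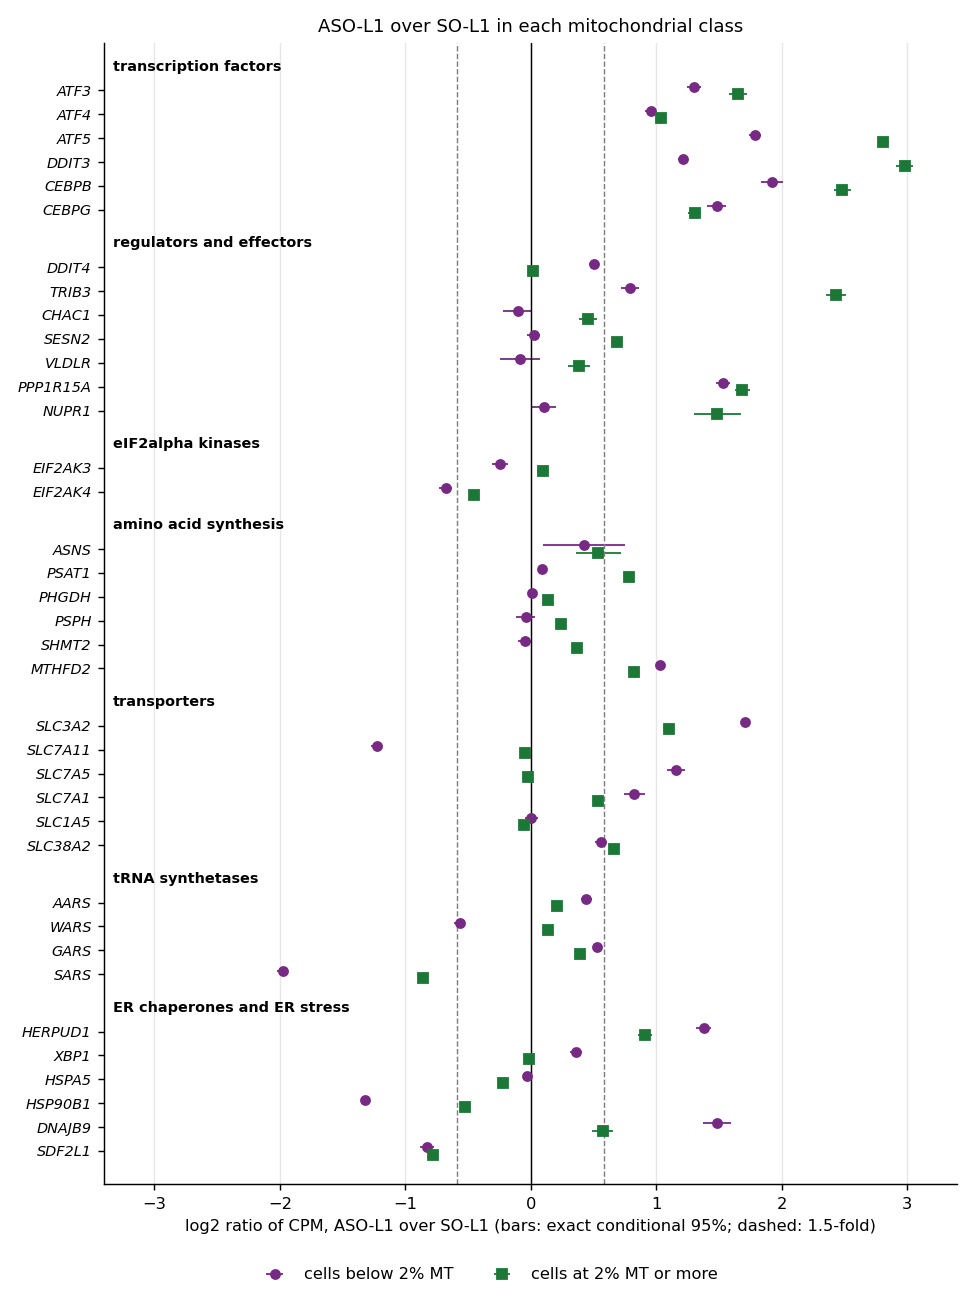
The log2 ratio of CPM of ASO-L1 over SO-L1 for each of the 37 genes, in low-mitochondrial cells (purple circles) and ordinary cells (green squares), with exact 95% intervals and dashed lines at 1.5-fold. The transcription factors sit right of the upper dashed line in both classes, while SARS and SDF2L1 sit left of the lower one in both.

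Among the 6 transporters, 3 were higher and 1 lower in ASO-L1 in low-mitochondrial cells, beside 22.9% and 24.9% of all genes. In ordinary cells 2 were higher, beside 12.2%. SLC3A2 (4F2hc, chr11:62856102-62888875, plus strand), the heavy chain shared by several amino acid exchangers, had 1379 CPM in ASO-L1 and 423 CPM in SO-L1 in low-mitochondrial cells, and 430 CPM and 200 CPM in ordinary cells. It was 3.26-fold (3.22 to 3.30) and 2.15-fold (2.12 to 2.17) higher. Its light chains had patterns of their own. SLC7A11 (xCT), the cystine importer, had 51.3 CPM in ASO-L1 and 120 CPM in SO-L1 in low-mitochondrial cells, and 53.0 CPM and 54.8 CPM in ordinary cells, ratios of 0.427 (0.413 to 0.442) and 0.967 (0.944 to 0.990). SLC7A5 (LAT1), the importer of leucine and other large amino acids, had 72.1 CPM in ASO-L1 and 32.3 CPM in SO-L1 in low-mitochondrial cells, and 49.6 CPM and 50.4 CPM in ordinary cells, ratios of 2.23 (2.12 to 2.35) and 0.985 (0.961 to 1.01). In ordinary cells, therefore, neither light chain differed past 1.5-fold while the heavy chain did, and in low-mitochondrial cells the light chains went opposite ways.

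Of the remaining transporters, SLC7A1 (CAT1), the importer of arginine and lysine, had 47.3 CPM in ASO-L1 and 26.7 CPM in SO-L1 in low-mitochondrial cells, and 61.2 CPM and 42.3 CPM in ordinary cells. Its ratio passed 1.5-fold in low-mitochondrial cells, 1.77 (1.67 to 1.87), and not in ordinary cells, 1.45 (1.41 to 1.48). SLC38A2 (SNAT2), a sodium-coupled importer of small neutral amino acids, had 112 CPM in ASO-L1 and 76.2 CPM in SO-L1 in low-mitochondrial cells, and 77.8 CPM and 49.2 CPM in ordinary cells. Its ratios, 1.47 (1.42 to 1.52) and 1.58 (1.54 to 1.62), lie on either side of the limit. SLC1A5 (ASCT2), a glutamine transporter, was level, with ratios of 1.003 (0.969 to 1.04) and 0.964 (0.947 to 0.982).

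No tRNA synthetase of the 4 was higher in ASO-L1 and 1, SARS, was lower in both classes. The shares of all genes lower were 24.9% in low-mitochondrial and 15.7% in ordinary cells, so 1 of 4 lay near them. SARS (chr1:109213918-109238169, plus strand), which charges serine, had 56.0 CPM in ASO-L1 and 220 CPM in SO-L1 in low-mitochondrial cells, and 73.4 CPM and 133 CPM in ordinary cells. Its ratios were 0.254 (0.246 to 0.262), the lowest of the 37 genes in low-mitochondrial cells, and 0.550 (0.541 to 0.560). AARS, which charges alanine, had ratios of 1.36 (1.32 to 1.40) and 1.16 (1.14 to 1.18). GARS, which charges glycine, had ratios of 1.44 (1.41 to 1.47) and 1.31 (1.29 to 1.33). Both carry a C/EBP-ATF match in their windows and lay above 1 without passing 1.5-fold. WARS, which charges tryptophan and is also induced by interferon gamma, had 82.4 CPM in ASO-L1 and 122 CPM in SO-L1 in low-mitochondrial cells, and 85.1 CPM and 77.2 CPM in ordinary cells. WARS stayed within 1.5-fold in both classes.

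Of the 6 ER genes, 2 were higher and 2 lower in ASO-L1 in low-mitochondrial cells, beside 22.9% and 24.9% of all genes. In ordinary cells 1 was higher and 1 lower, beside 12.2% and 15.7%. These counts lay near the shares of all genes and are not read as particular to the group. HERPUD1, a part of the ER degradation machinery with a C/EBP-ATF match in its window, had 127 CPM in ASO-L1 and 48.7 CPM in SO-L1 in low-mitochondrial cells, and 33.8 CPM and 18.0 CPM in ordinary cells, ratios of 2.60 (2.50 to 2.71) and 1.88 (1.81 to 1.95). DNAJB9 (ERdj4), a co-chaperone, had 38.6 CPM in ASO-L1 and 13.8 CPM in SO-L1 in low-mitochondrial cells, and 11.9 CPM and 8.03 CPM in ordinary cells, ratios of 2.79 (2.59 to 3.01) and 1.49 (1.40 to 1.58). HERPUD1 was thus higher in both classes and DNAJB9 past 1.5-fold in low-mitochondrial cells. HSP90B1 (GRP94, chr12:103930107-103953645, plus strand), an abundant ER chaperone, had 188 CPM in ASO-L1 and 471 CPM in SO-L1 in low-mitochondrial cells, and 327 CPM and 471 CPM in ordinary cells. Its ratios were 0.4001 (0.393 to 0.407) and 0.695 (0.689 to 0.701), the first past the limit. SDF2L1, a part of an ER chaperone complex, had 46.6 CPM in ASO-L1 and 82.6 CPM in SO-L1 in low-mitochondrial cells, and 53.9 CPM and 92.8 CPM in ordinary cells.

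HSPA5 (BiP), the master ER chaperone, whose window carries the same ER stress element as that of HSP90B1, had 448 CPM in ASO-L1 and 457 CPM in SO-L1 in low-mitochondrial cells, and 288 CPM and 336 CPM in ordinary cells. Its ratios were 0.981 (0.966 to 0.995) and 0.856 (0.848 to 0.865). XBP1, which encodes the factor of the IRE1 arm, had ratios of 1.29 (1.24 to 1.33) and 0.992 (0.973 to 1.01), and its spliced form was not counted apart. The 2 chaperones with matching elements therefore did not share a pattern, since HSP90B1 was lower in ASO-L1 past 1.5-fold in low-mitochondrial cells and HSPA5 was not.

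Within each library, low-mitochondrial cells were compared with ordinary cells. In ASO-L1, 13 of 37 genes were at least 1.5-fold higher in low-mitochondrial cells and 2 lower, beside 27.1% and 12.8% of 21455 genes. In SO-L1, 18 were higher and 2 lower, beside 19.9% and 6.32% of 19452 genes. The median log2 ratio was 0.38 over the members in ASO-L1, where that of all genes was 0.14, and 0.49 in SO-L1, where it was 0.09. Scaling by the median of the ratios, which removes the shift of all genes, left 9 of 37 higher in ASO-L1, beside 22.0% of all genes, and 15 of 37 in SO-L1, beside 16.7%. The ASO-L1 count then lay near the share of all genes. ATF5, TRIB3, SESN2 and HSPA5 were the 4 that fell under the limit in ASO-L1. Without the barcodes that the libraries share, the order of the medians in ASO-L1 turned round, with 0.23 over the members and 0.34 over all genes, and the 15 members then higher stood beside 39.4% of all genes. In SO-L1 the medians without them were 0.44 and 0.10.

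The genes higher in low-mitochondrial cells of both libraries numbered 12. They were ATF3, ATF5, CEBPG, DDIT3, DDIT4, TRIB3, SESN2, PPP1R15A, NUPR1, SLC3A2, HERPUD1 and DNAJB9. Here too the overlap over all genes was not counted. DDIT3 was 3.54-fold (3.48 to 3.60) higher in low-mitochondrial cells in ASO-L1 and 12.1-fold (11.5 to 12.7) in SO-L1. NUPR1 was 5.53-fold (5.18 to 5.90) and 14.4-fold (12.6 to 16.4) higher. TRIB3 was 1.52-fold (1.47 to 1.56) and 4.75-fold (4.43 to 5.09) higher. DDIT3, NUPR1 and TRIB3 thus had the larger ratio in SO-L1, where their level in ordinary cells was lower than in ASO-L1. The opposite held for SLC3A2, with 3.21-fold (3.19 to 3.23) in ASO-L1 and 2.12-fold (2.08 to 2.15) in SO-L1, for HERPUD1, with 3.75-fold (3.66 to 3.84) and 2.70-fold (2.57 to 2.84), and for DNAJB9, with 3.24-fold (3.10 to 3.38) and 1.72-fold (1.58 to 1.87). PPP1R15A was closer between the libraries, with 4.16-fold (4.07 to 4.25) and 4.62-fold (4.39 to 4.87).

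None of the 6 amino acid synthesis genes was higher in low-mitochondrial cells of either library, beside 27.1% of all genes in ASO-L1 and 19.9% in SO-L1. PSAT1 was lower in ASO-L1, 0.665 (0.654 to 0.676). HSP90B1 was also lower in low-mitochondrial ASO-L1 cells, 0.575 (0.567 to 0.584), and was level in SO-L1, 0.999 (0.986 to 1.01). ATF4 RNA differed by 1.22-fold (1.21 to 1.24) in ASO-L1 and 1.29-fold (1.25 to 1.33) in SO-L1, far less than DDIT3 or ATF3. Low-mitochondrial cells also had lower pluripotent markers and more CDKN1A, as given above, and whether these bear on the stress genes was not tested. A lower CPM of one gene can reflect less of its RNA or more of other RNA in the cell, which these counts cannot tell apart.

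**Figure D3:**
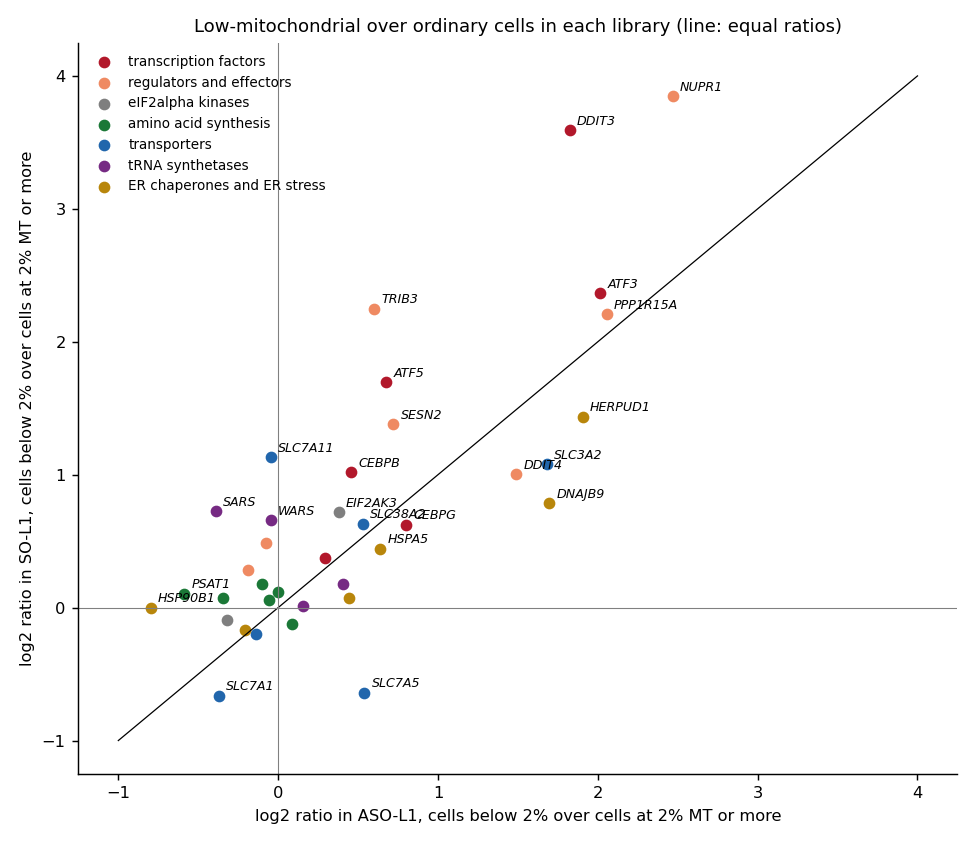
The log2 ratio of low-mitochondrial over ordinary cells in ASO-L1 (horizontal axis) and SO-L1 (vertical axis), 1 point per gene, coloured by group, with a line of equal ratios and names for genes past about 1.5-fold on either axis. NUPR1 and DDIT3 lie highest and above the line, SLC3A2, HERPUD1 and DNAJB9 lie below it, and the synthesis genes (green) lie near or left of 0.

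The class boundary was not a step for every gene. Ordinary cells were split at 4%, 6%, 8% and 10% mitochondrial UMIs. In ASO-L1 the level of DDIT3 over these 5 ranges, low to high, was 179, 111, 73.2, 40.1 and 36.7 CPM, with 306 cells in the lowest range and 837 in the highest. In SO-L1 the matching values were 80.6, 24.8, 10.8, 6.01 and 6.06 CPM. The SO-L1 cells at 2% to 4% numbered 156 and were shallow, with a median of 3423 UMIs. SLC3A2 in ASO-L1 went through 989, 581, 403, 294 and 306 CPM over the same ranges, and in SO-L1 through 309, 232, 195, 193 and 202 CPM. DDIT3 was thus lowest in cells at 8% or more in both libraries, while SLC3A2 in SO-L1 was about level upward of 6%. The libraries still differed in these ranges. ATF5 likewise had 94.1 CPM in ASO-L1 and 19.7 CPM in SO-L1 at 8% to 10%.

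HSP90B1 ran the other way in ASO-L1. It had 174, 241, 314, 404 and 439 CPM in ASO-L1 over the 5 ranges upward of 2%, against 425, 483, 492, 467 and 461 CPM in SO-L1. At 10% to 20% the libraries were thus within 1.5-fold for HSP90B1, 439 CPM and 461 CPM. PSAT1 was highest in ASO-L1 at 4% to 6%, with 256 CPM, against 140 CPM in SO-L1, and fell to 175 CPM in ASO-L1 at 10% to 20%, against 125 CPM in SO-L1. SARS stayed between 49.6 and 82.8 CPM over all 10 ranges in ASO-L1 and between 128 and 230 CPM in SO-L1, so the ranges of the libraries did not overlap.

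**Figure D4:**
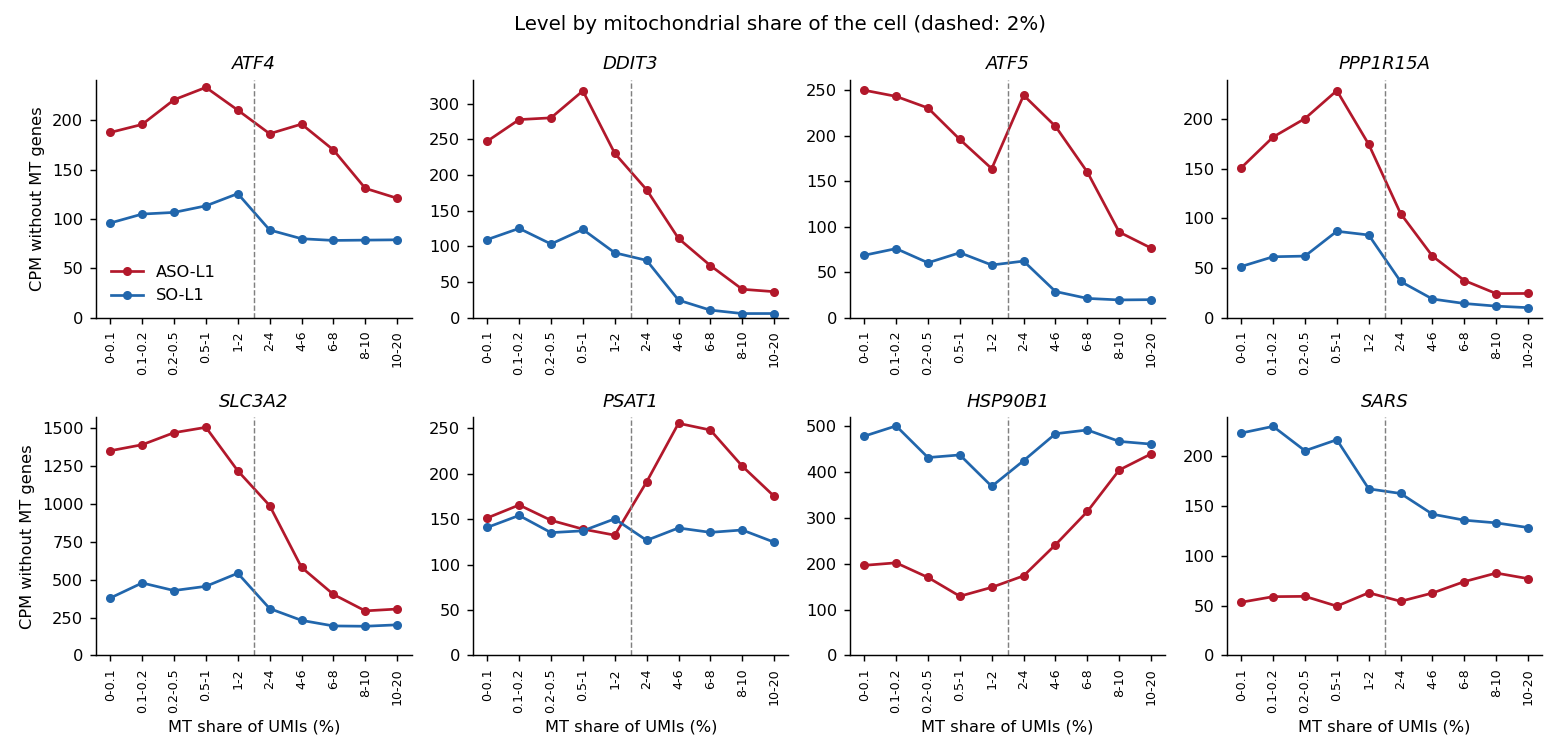
CPM of 8 genes (panels) by mitochondrial share of the cell in percent, ASO-L1 in red and SO-L1 in blue, with a dashed line at 2%. DDIT3, PPP1R15A and SLC3A2 are higher at 2% to 4% than at 8% or more in both libraries, while HSP90B1 climbs in ASO-L1 to the level of SO-L1 and SARS stays apart throughout.

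To see whether more cells or more molecules per cell carried the levels, cells were thinned to 8000 UMIs, which left out 520 shallower ASO-L1 and 649 shallower SO-L1 cells. DDIT3 had at least 1 UMI in 62.7% (60.7% to 64.7%) of 2235 low-mitochondrial ASO-L1 cells and 34.6% (32.2% to 36.98%) of 1554 SO-L1 cells. In ordinary cells it had one in 29.9% (28.7% to 31.0%) of 6329 ASO-L1 cells and 4.48% (3.89% to 5.14%) of 4350 SO-L1 cells. Before thinning, these shares were 79.6% and 53.8% in low-mitochondrial cells and 64.1% and 20.4% in ordinary cells. DDIT3 molecules were concentrated, since the 10% of cells richest in it held 42.8% of its thinned UMIs in low-mitochondrial ASO-L1 cells and 65.1% in low-mitochondrial SO-L1 cells. ATF4 was more evenly spread, with 30.1% and 36.7% in the same share of cells. The ordering of the 4 groups by share followed that by CPM for the 6 transcription factors. No cell type here should lack these genes, so a background share from free RNA could not be measured.

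**Figure D5:**
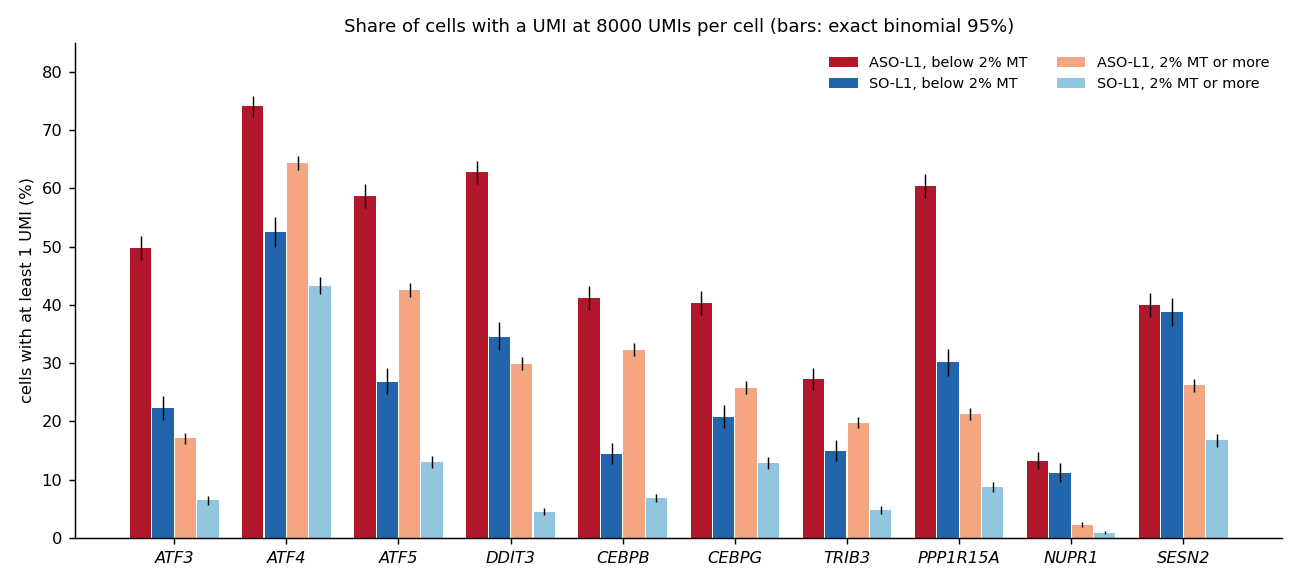
Share of cells with at least 1 UMI after thinning to 8000 UMIs per cell, for 10 genes in the 4 groups of cells, with exact binomial 95% intervals. DDIT3 reaches 62.7% of low-mitochondrial ASO-L1 cells and 4.48% of ordinary SO-L1 cells, while SESN2 and NUPR1 differ little between the libraries in low-mitochondrial cells.

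Within each group of cells, every member was also set against the summed UMIs of ATF3, ATF5, DDIT3, CEBPB, CEBPG, TRIB3 and PPP1R15A in the same thinned cell, the member itself left out. These correlations are descriptions over cells of 1 library, which share their library and depth. SLC3A2 had a Pearson r of 0.40 in low-mitochondrial and 0.59 in ordinary ASO-L1 cells, and of 0.60 and 0.19 in SO-L1 cells. HERPUD1 had 0.49 and 0.26 in ASO-L1 and 0.53 and 0.16 in SO-L1. By rank (Spearman), SLC3A2 and HERPUD1 had 0.06 and 0.03 in ordinary SO-L1 cells, and between 0.19 and 0.59 in the other groups. These genes therefore followed the stress factors from cell to cell as well as between groups, but hardly by rank in ordinary SO-L1 cells. HSP90B1 differed between the libraries, with -0.13 in low-mitochondrial and -0.37 in ordinary ASO-L1 cells, and with 0.38 and -0.03 in SO-L1 cells. HSPA5 had 0.40 and 0.05 in ASO-L1 and 0.48 and 0.04 in SO-L1. PHGDH, PSPH and SHMT2 were between 0.01 and 0.20 in all 4 groups, and ASNS between 0.01 and 0.11. ASNS had a mean of only 0.013 to 0.025 UMIs per thinned cell. Its correlations therefore cannot show whether it followed the stress factors.

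The low-mitochondrial ASO-L1 cells were not alike. Cells with 3 or more 8C genes numbered 368 in ASO-L1 and 22 in SO-L1, further cells with 2 or more UMIs of IL24 and ECM1 together numbered 769 and 42, and the others 1394 and 1793. IL24 and ECM1 were chosen after their values were seen. In ASO-L1, SARS had 24.0 CPM in the first, 27.9 CPM in the second and 91.6 CPM in the others, against 315, 260 and 218 CPM in SO-L1. HSP90B1 had 89.7, 98.9 and 301 CPM in ASO-L1, against 972, 359 and 466 CPM in SO-L1. SARS and HSP90B1 were thus lowest in the first 2 sets in ASO-L1, while in SO-L1 the few such cells had SARS above the others. DDIT3 had 384, 347 and 145 CPM in ASO-L1, against 288, 259 and 107 CPM in SO-L1, and SLC3A2 had 1904, 1933 and 714 CPM, against 1068, 1006 and 400 CPM. The stress factors and SLC3A2 were therefore highest in the same ASO-L1 cells in which SARS and HSP90B1 were lowest. HSPA5 had 540, 482 and 386 CPM in ASO-L1, against 1790, 597 and 434 CPM in SO-L1, the highest value coming from 22 cells. TRIB3 had 60.8, 77.5 and 41.1 CPM in ASO-L1, against 257, 70.6 and 29.7 CPM in SO-L1. In the first set TRIB3 was thus lower in ASO-L1, again beside only 22 SO-L1 cells.

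Other genes of these pathways were read from lists outside the 37. Of 27 further genes linked to ATF4, 5 were higher and 5 lower in ASO-L1 in low-mitochondrial cells, and 6 were higher and 1 lower in ordinary cells. GDF15, a secreted stress hormone, had 11.5 CPM in ASO-L1 and 3.74 CPM in SO-L1 in ordinary cells, the highest ratio of that list, 3.06 (2.83 to 3.32). TNFRSF10B, a death receptor induced through CHOP, was the lowest in low-mitochondrial cells, with 24.9 CPM in ASO-L1 and 77.0 CPM in SO-L1. The list thus held genes on both sides in low-mitochondrial cells, and TNFRSF10B was lower in ASO-L1 where DDIT3 was higher.

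Of 16 other cytosolic tRNA synthetases, 1 was higher and 4 lower in ASO-L1 in low-mitochondrial cells, and 1 higher and none lower in ordinary cells. IARS had 243 CPM in ASO-L1 and 138 CPM in SO-L1 in low-mitochondrial cells, while DARS had 40.6 CPM and 109 CPM, and TARS 97.1 CPM and 233 CPM. SARS was therefore not alone among synthetases in being lower there. Of 17 mitochondrial synthetases, 3 were higher and 2 lower in low-mitochondrial cells and 1 was higher in ordinary cells, with HARS2 at 24.1 CPM in ASO-L1 and 10.4 CPM in SO-L1 and NARS2 at 29.2 CPM and 72.0 CPM, both in low-mitochondrial cells.

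Of 16 genes for eIF2, eIF2B, other eIF2 kinases and phosphatases, 3 were higher in ASO-L1 in low-mitochondrial cells and 2 in ordinary cells, with none lower. PPP1R15B, the constitutive counterpart of PPP1R15A, had 12.4 CPM in ASO-L1 and 5.89 CPM in SO-L1, and EIF2S1, the phosphorylated subunit itself, 162 CPM and 80.4 CPM, both in low-mitochondrial cells. Of 25 other unfolded protein response genes, 5 were higher and 2 lower in low-mitochondrial cells, and none higher and 2 lower in ordinary cells. DERL2 had 88.7 CPM in ASO-L1 and 48.1 CPM in SO-L1, MANF 107 CPM and 58.8 CPM, and CREB3L2 12.7 CPM and 53.0 CPM in low-mitochondrial cells. Of 10 mitochondrial chaperones and proteases, 2 were higher in each class, HSPA9 with 484 CPM in ASO-L1 and 275 CPM in SO-L1 and HSPE1 with 657 CPM and 434 CPM in ordinary cells. Beside the background shares above, these counts were near or under those of all genes, apart from the last list in ordinary cells and the ATF4-linked genes higher in ordinary cells.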

How the data were processed

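Transcripts were measured by 3′ single-cell RNA sequencing in 1 ASO-L1 and 1 SO-L1 library. The authors deposited UMI counts, not normalized, for every gene in every barcode. Per the file headers these came from Cell Ranger 7.1.0, and per the submitters' processing notes the genome was hg38. Annotation release, cell calling, strand use and intronic reads: not given in the sources used here.

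UMIs were summed over kept cells (Python 3.11.15, numpy 2.4.6, scipy 1.17.1, pandas 2.3.3) and divided by the total without mitochondrial genes, which stay in the total where all kept cells are pooled. Ratios carry exact conditional 95% intervals. A gene was measured from 100 UMIs over both groups and was called at 1.5-fold or more with an interval excluding 1. The procedure was tested on simulated data. No test across conditions was possible with 1 library per group. No cell was left out as a doublet, and leaving out cells above the 95th percentile of UMIs was an alternative. Others changed the cell filter, depth, scaling, cell weight, class boundary and shared barcodes. Kept cells held 499106701 UMIs in ASO-L1 and 273349662 in SO-L1.

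The members, lists and the 2% class boundary were chosen with earlier results of these data known. All 37 members are accounted for, and from each other list the genes highest and lowest by ratio with at least 100 UMIs were named. Positions come from GENCODE 29 and promoters from RefSeq. AARS, GARS, SARS and WARS were matched there as AARS1, GARS1, SARS1 and WARS1.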

Additional observations from a re-analysis of the deposited data

Results flagged for a closer look

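Low-mitochondrial over ordinary cells gave ratios on opposite sides of 1, both intervals excluding 1 and at least one ratio past 1.5-fold, for 5 genes, and these differences between the libraries were not tested because each group is 1 library. SLC7A11, the cystine importer, had a ratio of 0.968 in ASO-L1 and 2.19 in SO-L1. SLC7A5, the importer of large neutral amino acids, had 1.45 in ASO-L1 and 0.642 in SO-L1. SARS had 0.763 in ASO-L1 and 1.65 in SO-L1, and WARS had 0.968 in ASO-L1 and 1.58 in SO-L1. PSAT1 had 0.665 in ASO-L1 and 1.08 in SO-L1. The ASO-L1 ratios of SLC7A11 and WARS and the SO-L1 ratio of PSAT1 lay close to 1. Their intervals cover counting error only. With mitochondrial genes in the total, 28 of the 37 genes lay above 1 in ASO-L1, in place of 22. For ratios this close to 1, the side of 1 can thus depend on the total used.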

How the results depend on the processing

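Each of the 10 counts of called members was recomputed under each alternative that applies to it, and no called member changed direction. Single ratios of ASO-L1 over SO-L1 were less stable, and many moved outside their 95% interval. Without shared barcodes 32 moved and 5 stayed in low-mitochondrial cells, and 31 moved and 6 stayed in ordinary cells. With the mean of per-cell CPM these numbers were 26 and 11, and 21 and 16. A stricter cell filter moved no ratio in low-mitochondrial cells. The intervals thus do not cover the choice of processing. The counts of higher genes stayed within 1.5 times of the reported value under every alternative. Scaling by the median of the ratios gave 18 genes higher in ASO-L1 in ordinary cells in place of 15, beside 14.1% of all genes. Ratios just under 1.5-fold there, as those of ASNS, SLC7A1 and DNAJB9, thus depend on the scaling. Counts of lower genes, which are small, moved more. With every barcode shared by the libraries left out, which removes 5308 of the kept ASO-L1 cells and 1062 of the kept SO-L1 cells, 4 genes were lower in ASO-L1 in ordinary cells in place of 2, and 4 were lower in low-mitochondrial ASO-L1 cells in place of 2. In that last comparison 1 was lower with no cell filter, with mitochondrial genes in the total, and with classes split at 1% or at 5%. In SO-L1, where 2 were lower in low-mitochondrial cells, 1 was lower after thinning, 0 with mitochondrial genes in the total and 0 with the mean of per-cell CPM; the cause was not tested. No paired analysis was possible because each group holds 1 library. With counts this deep, the number of libraries and not the number of UMIs limits what the ratios show.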

Other observations

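Lists further from amino acid supply were read in the same way, beside the background shares of all genes given above. Of 12 targets of NRF2, the factor of the oxidative stress response, 4 were higher and 1 lower in ASO-L1 in low-mitochondrial cells, and 4 were higher and 2 lower in ordinary cells. SRXN1, which repairs peroxiredoxins, had 9.86 CPM in ASO-L1 and 2.54 CPM in SO-L1 in low-mitochondrial cells, and HMOX1, which breaks down heme, had 177 CPM and 78.6 CPM. ME1, a source of NADPH, had 8.79 CPM in ASO-L1 and 40.8 CPM in SO-L1 there, so this list held genes on both sides.

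Of 11 measured hypoxia genes, 4 were higher and 3 lower in ASO-L1 in low-mitochondrial cells, with NDRG1 at 20.1 CPM in ASO-L1 and 6.74 CPM in SO-L1 and BNIP3L at 9.14 CPM and 37.9 CPM. Of 6 measured interferon gamma genes, 2 were higher and 1 lower, with GBP1 at 1.09 CPM in ASO-L1 and 0.102 CPM in SO-L1 and IDO1 at 13.6 CPM and 62.1 CPM.

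Markers of cells outside the line were also summed. Trophectoderm or amnion markers summed to 19.2 CPM in ASO-L1 and 9.65 CPM in SO-L1 in low-mitochondrial cells, fibroblast markers to 69.0 CPM and 62.7 CPM, neural markers to 3.01 CPM and 0.508 CPM, and blood markers to 1.44 CPM and 1.35 CPM. The fibroblast sum there was carried by COL1A1 (34.0 CPM in ASO-L1, 17.8 CPM in SO-L1) and COL1A2 (34.9 CPM and 44.8 CPM). COL3A1, LUM and DCN were near 0, at most 0.0613 CPM. In ordinary cells the fibroblast sums were 23.6 CPM in ASO-L1 and 24.1 CPM in SO-L1, and the neural sums 4.59 CPM and 3.79 CPM.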
